A study of Mus musculus with 2 samples.

Results

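Counts of 8 of the 32285 genes in the files were followed across leukocytes of mouse mammary tumours: Klrk1, Klrd1, Klrc1, Klrc2, Klre1, Klri2, Klra7 and Ncr1. They were chosen by name, as receptor genes best known from natural killer (NK) cells, and found by symbol in the gene list of the files. In the study, BALB/c mice of 6 to 8 weeks received cells of 4T1, a mammary carcinoma line that serves to model triple-negative breast cancer, in the mammary fat pad. The injected cells expressed either shPml, a short hairpin RNA against Pml, or shCTRL, the control hairpin, and the hosts carried neither. The comparison asks how Pml in the tumour bears on its immune cells. Tumours of similar size were taken on day 14, CD45-positive cells were sorted, and 1 library per group was made on the 10x Chromium platform. The number and sex of the mice behind each library are not given in the sources used here. With 1 library per group there is no replicate check, and no test was made: every interval is an exact 95% interval that covers counting error only.

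Levels were described in 4 groups of barcodes with at most 10% mitochondrial UMIs (unique molecular identifiers, 1 per counted transcript). CD8 T cells held a UMI of Cd3d, Cd3e or Cd3g and one of Cd8a or Cd8b1, and none of Cd4. They numbered 710 (shPml) and 239 (shCTRL). CD4 T cells held a Cd4 UMI and none of Cd8a or Cd8b1 (48 and 242). Barcodes with an Ncr1 UMI numbered 9 and 15. Neutrophils, with at least 1% of UMIs from S100a8 and S100a9, numbered 182 and 24 and served as the background for free RNA. Of the 1456 UMIs of the 8 genes in kept shPml barcodes, 891 were in CD8 T cells, and of 701 in the shCTRL library, 288 were. A level is given as CPM, the UMIs of a gene for every 1000000 UMIs of all genes in that group of barcodes.

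Most of these genes encode C-type lectin-like receptors of the NK gene complex, which cytotoxic lymphocytes use to read stress and MHC class I molecules on other cells. Klrk1 encodes NKG2D, an activating receptor that signals through the adaptor DAP10 (Hcst). Klrd1 encodes CD94, which pairs with NKG2A (Klrc1), an inhibitory receptor, or with NKG2C (Klrc2), an activating one, and both pairs bind the class Ib molecule Qa-1 (H2-T23). Klre1 and Klri2 encode lectin-like receptors that can pair with each other. Klra7 encodes the inhibitory class I receptor Ly49G. Ncr1 encodes NKp46, an immunoglobulin-like activating receptor and not a lectin, and is used to mark NK cells and some innate lymphoid cells. Activated CD8 T cells are known to carry several of these receptors too, above all NKG2D and CD94 with NKG2A.

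On the mm10 build, with the GENCODE vM21 annotation, 6 of the 8 genes lay within 162.6 kb of chromosome 6. In order along the chromosome they were Klre1 (chr6:129577905-129585827, plus strand), Klrd1 (chr6:129591782-129598775, plus), Klrk1 (chr6:129610323-129623864, minus), Klrc2 (chr6:129647496-129660689, minus), Klrc1 (chr6:129666015-129678973, minus) and Klri2 (chr6:129729041-129740484, minus). Klra7 lay 478.1 kb further on (chr6:130218605-130233322, minus). Ncr1 was on chromosome 7 (chr7:4337724-4345164, plus).

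The ends of the coding sequences of Klrc1, Klrc2 and the neighbouring Klrc3 are shown because the counts of these genes can trade reads. The last 120 coding bases before the stop codon are printed 5′ to 3′ from the GENCODE transcripts, with capitals at the bases that differ from Klrc1.
Klrc1: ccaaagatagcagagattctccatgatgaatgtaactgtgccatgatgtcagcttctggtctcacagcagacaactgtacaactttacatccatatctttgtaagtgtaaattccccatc
Klrc2: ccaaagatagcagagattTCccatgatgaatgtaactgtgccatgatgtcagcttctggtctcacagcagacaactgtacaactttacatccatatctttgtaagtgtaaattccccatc
Klrc3: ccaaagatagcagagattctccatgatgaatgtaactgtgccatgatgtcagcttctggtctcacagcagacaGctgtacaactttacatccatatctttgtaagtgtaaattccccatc
Klrc2 differed from Klrc1 in 2 of these bases and Klrc3 in 1. Over their whole coding sequences Klrc1 and Klrc2 were 83.1% identical, and 18.6% of the 50-base windows of the Klrc2 transcripts also occurred in Klrc1. The split of UMIs between Klrc1 and Klrc2 is therefore uncertain here. Klra7 belongs to the Ly49 genes, which differ in number between mouse strains, so its counts in BALB/c cells against a reference of another strain are uncertain too.

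The RefSeq promoter table (GRCm38.p6) held windows for 6 of the 8 genes, Klrd1 and Klri2 being the others. The 250 bases before a start site are printed 5′ to 3′ on the strand of the gene for the 4 genes that were at least 2-fold higher in shPml CD8 T cells: Klrk1 (chr6:129623865-129624114, minus), Klrc1 (chr6:129678974-129679223, minus), Klrc2 (chr6:129660597-129660846, minus) and Klre1 (chr6:129577963-129578212, plus). Capitals mark matches, on either strand, to TGTGGT, a core motif of RUNX factors, to TCACAC, a T-box motif, or to CAGGAA, an ETS motif.
Klrk1: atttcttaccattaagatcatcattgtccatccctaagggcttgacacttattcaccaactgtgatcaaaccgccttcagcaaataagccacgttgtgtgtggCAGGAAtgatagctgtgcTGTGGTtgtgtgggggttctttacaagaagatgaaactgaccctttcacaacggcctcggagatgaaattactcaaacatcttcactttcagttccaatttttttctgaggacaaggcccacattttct
Klrc1: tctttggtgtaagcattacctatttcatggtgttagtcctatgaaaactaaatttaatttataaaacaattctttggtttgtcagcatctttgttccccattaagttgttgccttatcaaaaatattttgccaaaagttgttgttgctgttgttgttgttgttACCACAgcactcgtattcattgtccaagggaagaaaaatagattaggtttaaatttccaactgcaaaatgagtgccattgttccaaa
Klrc2: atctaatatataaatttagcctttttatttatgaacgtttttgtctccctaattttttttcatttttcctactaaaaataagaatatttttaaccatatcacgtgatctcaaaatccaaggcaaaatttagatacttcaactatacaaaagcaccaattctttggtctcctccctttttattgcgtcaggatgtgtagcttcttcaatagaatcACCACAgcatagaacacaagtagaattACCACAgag
Klre1: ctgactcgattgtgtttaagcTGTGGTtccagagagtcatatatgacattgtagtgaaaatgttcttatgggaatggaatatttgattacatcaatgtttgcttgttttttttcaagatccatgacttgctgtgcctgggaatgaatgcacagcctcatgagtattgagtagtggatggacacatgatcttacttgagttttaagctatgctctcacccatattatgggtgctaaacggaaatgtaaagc
TGTGGT or its reverse complement occurred in 7 of 10 windows of the 8 genes, from 5 of the 6 genes with a window, against 14.0% of all 32851 windows of this length in the table. TCACAC occurred in 3 of the 10 windows (Klre1 and Ncr1), against 12.3% of all windows. CAGGAA occurred in 1 (Klrk1), against 25.7%. Several windows belong to 1 gene and overlap, and a match describes letters, not binding. For Klrc2 and Klre1 the window further upstream is printed. The other Klre1 window (chr6:129578036-129578285, plus) had 0 RUNX matches and held the T-box match of that gene. The Klre1 windows lie within the GENCODE span of the gene given above.

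The 2 libraries differed in ways that bear on every value below. The shPml library held 4227187 UMIs in 2268 barcodes, of which 1754 were kept, with a median of 1300 UMIs. The shCTRL library held 5044925 UMIs in 2244 barcodes, of which 856 were kept, with a median of 4040. The libraries shared 266 barcode sequences, and shared barcodes made up 168 of 710 shPml CD8 T cells and 106 of 239 shCTRL ones. In the CD8 group, 91 barcodes were shared between both libraries. Of the 106 shared shCTRL barcodes, 91 had more UMIs in the shPml library, and their median was 1052 UMIs against 5390 for the other shCTRL CD8 T cells. Whether transcripts of one library were read into the other was not tested. The main ratios are therefore also given with the shared barcodes left out.

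The libraries also differed in sex-linked transcripts. UMIs of 4 genes of the Y chromosome (Uty, Kdm5d, Ddx3y and Eif2s3y) were found in 158 of 710 shPml CD8 T cells, and Xist, the non-coding RNA of the inactive X chromosome, in 22 others. In the shCTRL library, 12 of 239 CD8 T cells held a Y-linked UMI and 130 others Xist. All 12 were shared barcodes, and 0 of the 133 not shared had a Y-linked UMI. Barcodes with an Ncr1 UMI and neutrophils had no Y-linked UMI in either library, and the CD4 group had 1, in the shPml library. No cell of these groups held both kinds. In CD8 T cells the hairpin and this difference cannot be told apart, so ratios among cells with Xist and no Y-linked UMI are given beside the main ones.

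CD8 T cells of the shPml library held the 8 genes at 766 CPM in sum (717 to 818; 891 UMIs), against 291 CPM (258 to 326; 288 UMIs) in the shCTRL library. The difference was 2.63-fold, or a log2 ratio of 1.4 (1.2 to 1.59). With the shared barcodes left out, the shPml sum was 698 CPM and the shCTRL sum 160 CPM, a log2 ratio of 2.12 (1.83 to 2.43). Of the 8 genes, 5 had at least 20 UMIs over both libraries, and 4 of those 5 were at least 2-fold higher in the shPml library, with and without the shared barcodes. Klrk1 stayed past 2-fold under all 17 alternatives tried. As a mean over cells, Klrc1 was at 0.65 and Klre1 at 0.41, and after thinning to 500 UMIs per cell Klrc2 was at 0.54 and Klre1 at 0.75 on the log2 scale, all under 2-fold. Over all genes with 20 UMIs, 11.9% were 2-fold higher, and 17.5% with the shared barcodes left out. The median log2 ratio of the 5 was 1.73, against 0.13 over all genes, and without the shared barcodes 4.20 against 0.18. Fewer cells with a receptor and less of its RNA per cell cannot be told apart in such sums.

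Klrk1, the gene for NKG2D, had 236 CPM (209 to 266) in CD8 T cells of the shPml tumours and 49.5 CPM (36.6 to 65.4) in shCTRL CD8 T cells. It was 4.78-fold higher, a log2 ratio of 2.26 (1.81 to 2.73). Without the shared barcodes it was at 231 CPM in the shPml library and at 12.5 CPM, 9 UMIs in 133 cells, in the shCTRL library. Leaving them out took the ratio to 4.20 (3.24 to 5.36), since most shCTRL UMIs of the gene, 40 of 49, sat in shared barcodes.

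Klrc1, the inhibitory NKG2A chain, was at 192 CPM (223 UMIs) against 58.6 CPM (58 UMIs), a log2 ratio of 1.71 (1.29 to 2.15). Without the shared barcodes the shCTRL level was 8.36 CPM, 6 UMIs in 4 cells, and the ratio 4.42 (3.25 to 5.89). Klrc2, the activating NKG2C chain, was at 63.6 CPM (74 UMIs) against 19.2 CPM (19 UMIs), a log2 ratio of 1.73 (0.99 to 2.54). Its shCTRL count outside the shared barcodes was 2 UMIs, against 47 in the shPml library, for a ratio of 4.54 (2.61 to 7.63). Both chains thus showed the pattern of Klrk1: a level in shPml CD8 T cells that hardly depended on the shared barcodes, and shCTRL counts that were mostly in them.

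Klrd1, the CD94 chain that both of them pair with, differed least. It was at 209 CPM (183 to 237) in the shPml library and at 142 CPM (120 to 168) in the shCTRL library, a log2 ratio of 0.55 (0.25 to 0.86). Without the shared barcodes the levels were 177 and 137 CPM, and the interval of the ratio, 0.37 (-0.02 to 0.77), held 0. Outside the shared barcodes, 53 of 133 shCTRL CD8 T cells held a Klrd1 UMI, and 3 of those 53 also held one of Klrc1 and 2 one of Klrc2. In the shPml library, 20 of 86 such cells with Klrd1 also held Klrc1, although their median depth was 1286.5 UMIs against 5874 in the shCTRL cells.

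Klre1 was at 50.7 CPM (59 UMIs in 36 cells) against 12.1 CPM (12 UMIs in 8 cells), a log2 ratio of 2.07 (1.15 to 3.10). All 12 shCTRL UMIs were in shared barcodes. Without these, 30 shPml UMIs stood against 0, which gives a 9.93-fold ratio when 3 UMIs over the group are taken as the floor. The other 3 genes were near absent from CD8 T cells. Klri2 had 3 UMIs (shPml) and 2 UMIs (shCTRL). Klra7 had 14 UMIs in 6 shPml cells, 7 of them in 1 cell and 12 in shared barcodes, and 1 UMI in the shCTRL library. Ncr1 had 0 UMIs in 710 shPml cells, which allows up to 2.58 CPM. Its 6 UMIs in the shCTRL library were all in 1 shared barcode of 10542 UMIs, which also counts among the barcodes with an Ncr1 UMI. That barcode held 31 UMIs of the 8 genes, 10.8% of those in shCTRL CD8 T cells. Of these, 9 were of Klrk1, 4 of Klrd1, 7 of Klrc1, 3 of Klrc2 and 2 of Klri2. It had 1 UMI of Cd8a, 2 of Cd3e and 0 of the T cell receptor gene Trac. Tyrobp and Fcer1g, both on the list of NK cell markers below, had 7 and 8. Which cell it came from was not tested.

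**Figure D1:**
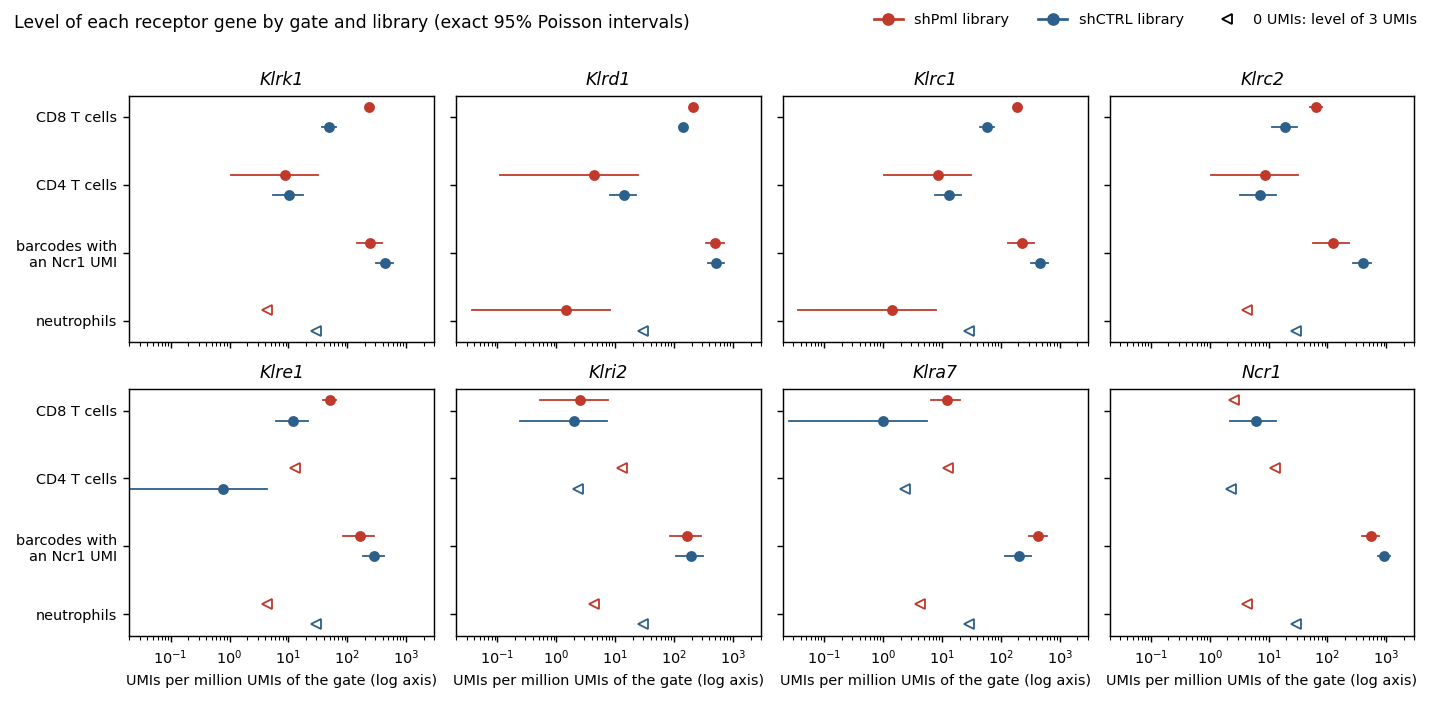
Level of each of the 8 genes in 4 groups of barcodes and both libraries, as CPM on a log axis, with exact 95% Poisson intervals; open triangles stand at the level of 3 UMIs where a gene had 0 UMIs. Klrk1, Klrc1, Klrc2 and Klre1 were higher in shPml than in shCTRL CD8 T cells, and Klri2, Klra7 and Ncr1 were high only among barcodes with an Ncr1 UMI.

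**Figure D2:**
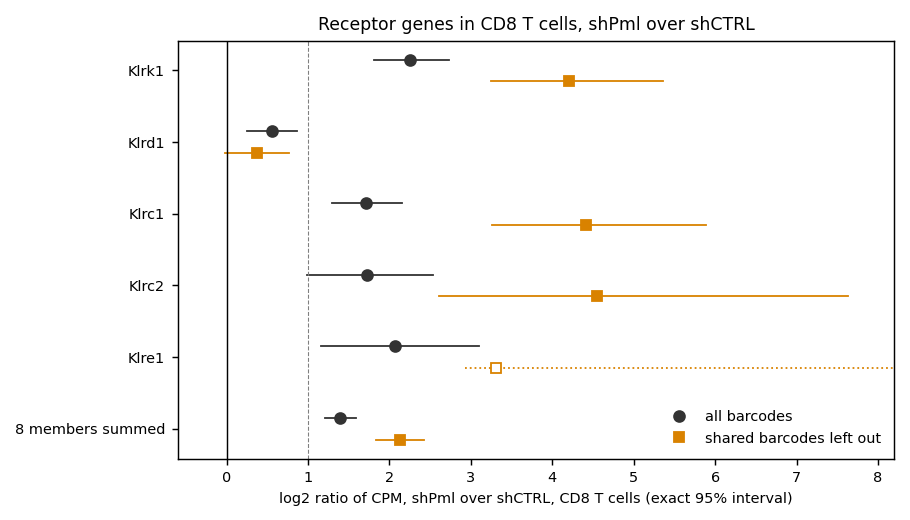
Log2 ratio of CPM in CD8 T cells, shPml over shCTRL, for 5 genes and the sum of the 8, with all barcodes (circles) and with the shared barcodes left out (squares); bars are exact 95% intervals, the dashed line marks 2-fold, and the open square of Klre1 is a ratio against a floor of 3 UMIs whose dotted interval has no upper end. All ratios but that of Klrd1 lay further right once the shared barcodes were left out.

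Within the shCTRL library, shared CD8 barcodes carried more of the same genes than the others. The sum was 635 CPM in shared and 160 CPM in other barcodes, a log2 ratio of 1.99 (1.64 to 2.34). Among the shared ones, the barcode with Ncr1 UMIs held 31 UMIs of the 8 genes, 9 of them of Klrk1 and 7 of Klrc1. Klrk1 differed by 3.55 and Klrc1 by 4.51, while Klrd1 differed by 0.21 (-0.34 to 0.74). Of the 3 genes with 20 UMIs there, 2 were at least 2-fold higher, against 16.3% of all genes 2-fold higher and 8.57% lower. Within the shPml library 0 of 5 were, against 4.45%, with Klrk1 at 0.09 (-0.27 to 0.45) and Klrd1 at 0.56 (0.19 to 0.94). The shared barcodes thus stood apart in the shCTRL library and much less in the shPml library.

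Among CD8 T cells with Xist and no Y-linked UMI, 22 in the shPml and 130 in the shCTRL library, the summed genes were higher in the shPml library by a log2 ratio of 1.48 (1.09 to 1.87; 77 against 209 UMIs). Klrk1 differed by 1.92 (0.92 to 2.86), Klrc1 by 2.21 (1.38 to 3.02) and Klrd1 by 0.54 (-0.19 to 1.2). With the shared barcodes left out as well, the sum differed by 1.72 (1.16 to 2.25), resting on 41 UMIs in 16 shPml cells. Within shPml CD8 T cells, Klrk1 was at 249.9 CPM in those with a Y-linked UMI and at 137 CPM in those with Xist, and Klrd1 at 177 and 201 CPM. Among those not shared, Klrk1 was at 267 CPM (39 UMIs) and 79.1 CPM (6 UMIs), and Klrd1 at 109.6 and 211 CPM. Sums over these few cells thus ran in the direction of all CD8 T cells.

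Shares of cells depend on depth, which was lower in the shPml library (median 1397 UMIs per CD8 T cell, against 4022). With every cell thinned to 500 UMIs, 12.4% of shPml and 3.35% of shCTRL CD8 T cells held a Klrk1 UMI. As deposited these shares were 26.3% and 13.8%. Klrc1 was found in 69 and 11 thinned cells (9.72% and 4.6%), and Klrd1 in 7.32% and 7.11%. At least 1 of the 8 genes was found in 28.9% of thinned shPml cells and in 16.3% of thinned shCTRL cells, and without the shared barcodes in 27.7% and 4.51%. For Klrd1 the shares as deposited, 142 of 710 cells against 78 of 239, went against its CPM, so no order was read from it.

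As deposited, 334 of 710 shPml CD8 T cells (47.0%) had none of the 8 genes, 225 had 1, 93 had 2 and 58 had more, namely 50 with 3, 4 with 4 and 4 with 5. In the shCTRL library, 126 of 239 (52.7%) had none, 85 had 1 and 16 had 2. After thinning, 2 or more genes were found in 43 shPml cells (38 with 2 and 5 with 3) and in 5 shCTRL cells (3 and 2).

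Co-detection was read in shPml CD8 T cells, which held most of the counts. Of 36 cells with Klre1, 22 (61.1%; 43.5 to 76.9) also held Klrd1, against 17.8% (15.0 to 20.9) of the 674 cells without Klre1. With the shared barcodes left out the shares were 64.7% (11 of 17 cells) and 14.3%. Cells with Klre1 were deeper, with a median of 1952 UMIs against 1379, and after thinning the shares were 21.4% (3 of 14; 4.66 to 50.8) and 7.04%, with intervals that overlapped. The overlap of Klre1 with Klrd1 was the strongest among the 10 pairs of the 5 counted genes as deposited.

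As deposited, Klrc1 and Klrc2 also tended to share cells. Of 64 cells with Klrc2, 31 (48.4%; 35.8 to 61.3) held Klrc1, against 19.8% of cells without Klrc2. After thinning the shares were 23.1% (6 of 26; 8.97 to 43.6) and 9.21%, and the interval of the first held the second. Reads that fit both genes would add to this pair, and their part was not tested. Klrd1 was found in 29.6% (22.6 to 37.3) of cells with Klrc1 and in 17.2% (14.2 to 20.7) of those without it, and after thinning in 8.70% and 7.18%. Between Klrc2 and Klrd1 no tie was seen: 21.9% of cells with Klrc2 and 19.8% of those without it held Klrd1, with overlapping intervals. The 64 cells with Klrc2 are too few to exclude one.

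**Figure D3:**
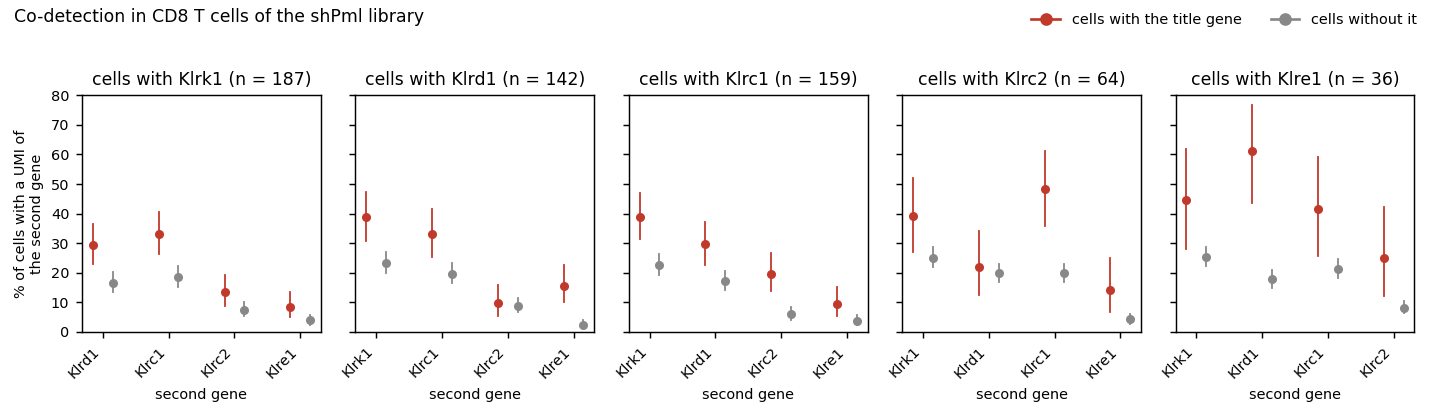
Share of shPml CD8 T cells, as deposited, with a UMI of a second gene (x axis), among cells with (red) and without (grey) a UMI of the gene named above each panel; bars are exact 95% binomial intervals. Klrd1 in cells with Klre1, at 61.1%, and Klrc1 in cells with Klrc2, at 48.4%, stood furthest above the cells without the gene.

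Across shPml CD8 T cells the receptor genes did not all go with the same other genes. Cells with a UMI of Cxcr6, a chemokine receptor of tissue-resident T cells, held Klrd1 at 388 CPM against 132 CPM in cells without, a log2 ratio of 1.56 (1.18 to 1.94). Klrc1 was at 279 against 154 CPM (0.86; 0.46 to 1.25), whereas Klrk1 differed by 0.38 (0.01 to 0.74). Cells with Gzma, the gene for granzyme A, held Klrd1 at 483 against 161 CPM (1.58; 1.18 to 1.97) and Klre1 at 151 against 33.3 CPM (2.19; 1.39 to 2.97). Klrk1 there differed by 0.18 (-0.32 to 0.64). Klrd1 and Klre1 were thus the genes that followed Cxcr6 and Gzma most closely, and both did so without the shared barcodes, although for Klre1 in Cxcr6 cells the interval then held 0 (1.2; -0.01 to 2.35).

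Cells with Gzmb, the gene for granzyme B, had more of all 5 counted genes. The log2 ratios ran from 0.56 (0.20 to 0.91) for Klrk1 to 1.36 (0.55 to 2.22) for Klre1. With the shared barcodes left out they ran from 0.61 (0.06 to 1.14) for Klrd1 to 1.83 (0.70 to 3.02) for Klre1. Cells with Xcl1, a chemokine gene, held less Klrd1 (127 against 272 CPM, a log2 ratio of -1.10; -1.53 to -0.68), but without the shared barcodes this interval held 0 (-0.44; -1.01 to 0.11). Cells with a UMI of a proliferation gene held Klrk1 at a like level to others (-0.16; -0.51 to 0.19) and less Klrd1 (-0.69; -1.08 to -0.31). The last also held 0 without the shared barcodes (-0.45; -1.02 to 0.11).

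In shCTRL CD8 T cells, Gzmb split the genes more widely. Klrc1 was at 306 CPM in 50 cells with Gzmb and at 36.3 CPM in 189 without, a log2 ratio of 3.07 (2.26 to 3.87). Klrk1 was at 171 and 38.5 CPM (2.15; 1.14 to 3.08), and Klrd1 at 330.0 and 125 CPM (1.39; 0.73 to 2.01). Gzmb, depth and sharing moved together in this library: 2 of the 50 cells were not shared, and the median depth was 1115 UMIs with Gzmb and 4989 without. Cells with Ly6c2, a surface marker gene of memory CD8 T cells, held 1 of the 58 Klrc1 UMIs and Klrk1 at 29.0 against 66.3 CPM (-1.19; -2.23 to -0.24), whereas Klrd1 was at 149.7 and 136 CPM (0.13; -0.36 to 0.63). With the shared barcodes left out, 60 cells with Ly6c2 and 73 without it held 5 and 4 UMIs of Klrk1, too few to show a difference. Klrd1 could still be compared with Cxcr6 there, at 272 CPM in 12 cells with it and 121 CPM in 121 without (1.17; 0.38 to 1.89).

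**Figure D4:**
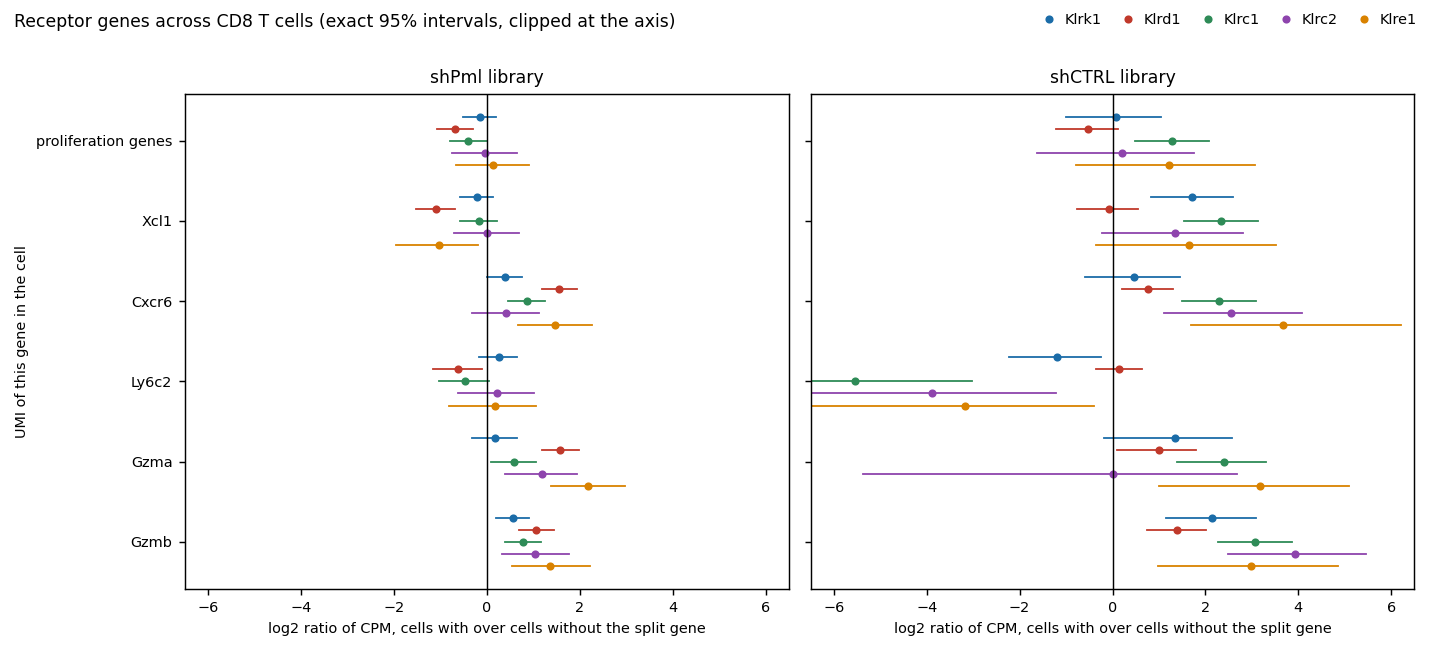
Log2 ratio of CPM for 5 receptor genes (colours) in CD8 T cells with over without a UMI of the gene named on the y axis, in each library, all barcodes; bars are exact 95% intervals, clipped at the axis limits. In shPml cells Klrd1 and Klre1 were furthest right for Gzma and Cxcr6, and in shCTRL cells all 5 genes were right of 0 for Gzmb, while Klrk1, Klrc1, Klrc2 and Klre1, but not Klrd1, were left of 0 for Ly6c2.

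CD4 T cells held few of these transcripts. Their sum was 30.3 CPM (7 UMIs) in the shPml and 45.3 CPM (58 UMIs) in the shCTRL library, a log2 ratio of -0.58 whose interval held 0 (-1.96 to 0.55). None of the 8 genes reached 20 UMIs there, so none could be counted against the 9.43% of genes 2-fold higher and the 7.34% 2-fold lower (9.96% and 8.70% without the shared barcodes). Of the 7 shPml UMIs, 3 (42.9%) were in 1 barcode of 1318 UMIs, 1 of Klrc1 and 2 of Klrc2. It held 0 UMIs of Cd3d, Cd3e and Cd3g, which the CD4 group did not require, and 2 of the T cell receptor gene Trac. Of the 58 shCTRL UMIs, 35 (60.3%) were in 1 shared barcode of 19395 UMIs with 6 of Klrk1, 3 of Klrd1, 17 of Klrc1 and 9 of Klrc2. That barcode also held 21 UMIs of Cd4, 52 of Cd3g, 21 of Rora and 0 of Foxp3. Every shCTRL CD4 UMI of Klrc1 and Klrc2 came from it. Klrd1 was spread more widely, with 18 UMIs in 12 of 242 cells.

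CD8 T cells held more of the receptor genes than CD4 T cells in both libraries. The log2 ratio of the sums was 4.66 (3.61 to 5.98) in the shPml and 2.68 (2.27 to 3.11) in the shCTRL library. In the shPml library 5 of 5 counted genes were at least 2-fold higher in CD8 T cells, against 10.1% of all genes. In the shCTRL library 4 of 4 were, against 2.66%. Leaving out the barcode with most UMIs of the 8 genes in each group took the shCTRL ratio to 3.84 (3.23 to 4.53). Without the shared barcodes only Klrd1 could be counted there, at 3.21 (2.42 to 4.10), against 2.48% of genes 2-fold higher and 6.32% lower, and Klrk1 had 9 UMIs in shCTRL CD8 and 7 in shCTRL CD4 T cells (0.87; -0.73 to 2.53). In the shPml library 5 of 5 were 2-fold higher without them, against 13.5% of genes.

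Neutrophils, which should lack these receptors, gave the background. In 182 shPml neutrophils with a median of 3413 UMIs, 2 UMIs of the 8 genes were found (2.88 CPM), 1 of Klrd1 and 1 of Klrc1. In 24 shCTRL neutrophils there were 0, which allows a level of up to 29.5 CPM and a share of up to 12.5% of cells with a UMI. Cells that express a gene without a captured UMI are not counted in such a share. The CD8 sum was above the neutrophil sum by a log2 ratio of 8.05 (6.20 to 11.1) in the shPml library, where 5 of 5 counted genes, against 55.9% of all genes, were 2-fold higher. Leaving out the shared barcodes kept 5 of 5 there, against 51.1% of genes 2-fold higher and 20.3% lower. In the shCTRL library the CD8 sum was 9.87-fold the floor of 3 UMIs, and 1 of 3 counted genes was 2-fold above it, against 37.2% of all genes. The shCTRL levels of Klrk1, Klrc1 and Klrc2 outside the shared barcodes, at 12.5 CPM and below, were thus under what these 24 cells can resolve.

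Barcodes with an Ncr1 UMI carried the highest levels. Ncr1 itself defined the group (545 CPM in the shPml and 912 CPM in the shCTRL library) and is not a finding. Klrd1 was at 504 and 516 CPM, Klrk1 at 245 and 432 CPM, and Klrc1 at 232 and 456 CPM. With the shared barcodes left out, 6 shPml and 12 shCTRL barcodes remained, and the order of the libraries turned: Klrd1 was at 956 (649 to 1357) and 551 CPM (377 to 778), Klrk1 at 432 (236 to 724) and 344 CPM (210.3 to 532), and Klrc1 at 493 (282 to 801) and 413 CPM (265 to 615). These intervals overlapped between the libraries, so no order was read from them. Over all barcodes, Klri2 and Klra7, near absent elsewhere, were at 163 and 192 CPM and at 436 and 204 CPM. Among the 9 shPml and 15 shCTRL barcodes, Klrk1 was found in 7 and 11, Klrd1 in 7 and 11, Klrc1 in 4 and 9, Klrc2 in 4 and 9, Klre1 in 4 and 7, Klri2 in 2 and 6, and Klra7 in 2 and 4. At least 3 of the genes besides Ncr1 were found in 16 of the 24 barcodes.

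Markers of other cells were read in the same barcodes. Of 24, 16 had no UMI of Cd3d, Cd3e, Cd3g, Cd8a, Cd8b1 or Cd4, and 18 had at least 3 NK cell markers other than Ncr1. NK cell markers summed to 6812 CPM in the shPml and 7547 CPM in the shCTRL library, with 9 and 11 of 12 found. These 12 include Ncr1, which defined the group and made up 545 and 912 CPM of the sums. In CD8 T cells 6 and 7 of 12 were found, at 504 and 204 CPM, with Klra4, Klra8, Klrg1, S1pr5 and Itga2 at 0 in both libraries. The list holds Tyrobp, which myeloid cells express too, and Fcer1g. It reached 4348 CPM in shPml neutrophils with 4 of 12 found, where Fcer1g was at 2424 CPM and Tyrobp at 1921 CPM. T cell markers reached 817 and 1548 CPM in the barcodes with an Ncr1 UMI, against 8516 and 5386 CPM in CD8 T cells. These markers include the CD3 genes, and CD8 T cells held a CD3 UMI by definition, so the grouping set part of this contrast. A shCTRL barcode of 5211 UMIs held 22 UMIs of the B cell gene Cd79a and none of the other 7 receptor genes. The part of other cell types in these levels was not tested.

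Single barcodes decided some of these levels. A shared shPml barcode of 39832 UMIs held 31 of the 32 Klra7 UMIs, 11 of the 12 Klri2 UMIs and 66 of the 177 UMIs of the 8 genes (37.3%). Without the shared barcodes, Klra7 and Klri2 had 1 UMI each in the shPml library (30.8 CPM). Another shPml barcode, of 10886 UMIs, held 21 of 37 Klrd1 and 14 of 17 Klrc1 UMIs. The shCTRL counts were less concentrated, with at most 45 of 283 UMIs of the 8 genes (15.9%) in 1 barcode.

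Klra7 was found in barcodes without Rora, a transcription factor gene of innate lymphoid cells. Over both libraries, 0 of 10 barcodes with Rora and 6 of 14 without it held Klra7, and Klri2 was found in 2 of 10 and 6 of 14. For Eomes, a transcription factor gene of NK cells, the counts ran the other way: 4 of 7 barcodes with Eomes and 2 of 17 without it held Klra7. No barcode held both Eomes and Rora. Klrk1 showed no such split, with 8 of 10 barcodes with Rora and 10 of 14 without it. Gata3, another innate lymphoid marker, did not follow Rora. It was found in 5 barcodes, all shCTRL. Those of 7717 and 5203 UMIs held Klra7, and those of 10542, 4901 and 4777 UMIs did not. Il7r, also such a marker, was found with Klra7 only in the shCTRL barcode of 3558 UMIs. These counts are from few barcodes of unequal depth and carry no test.

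**Figure D5:**
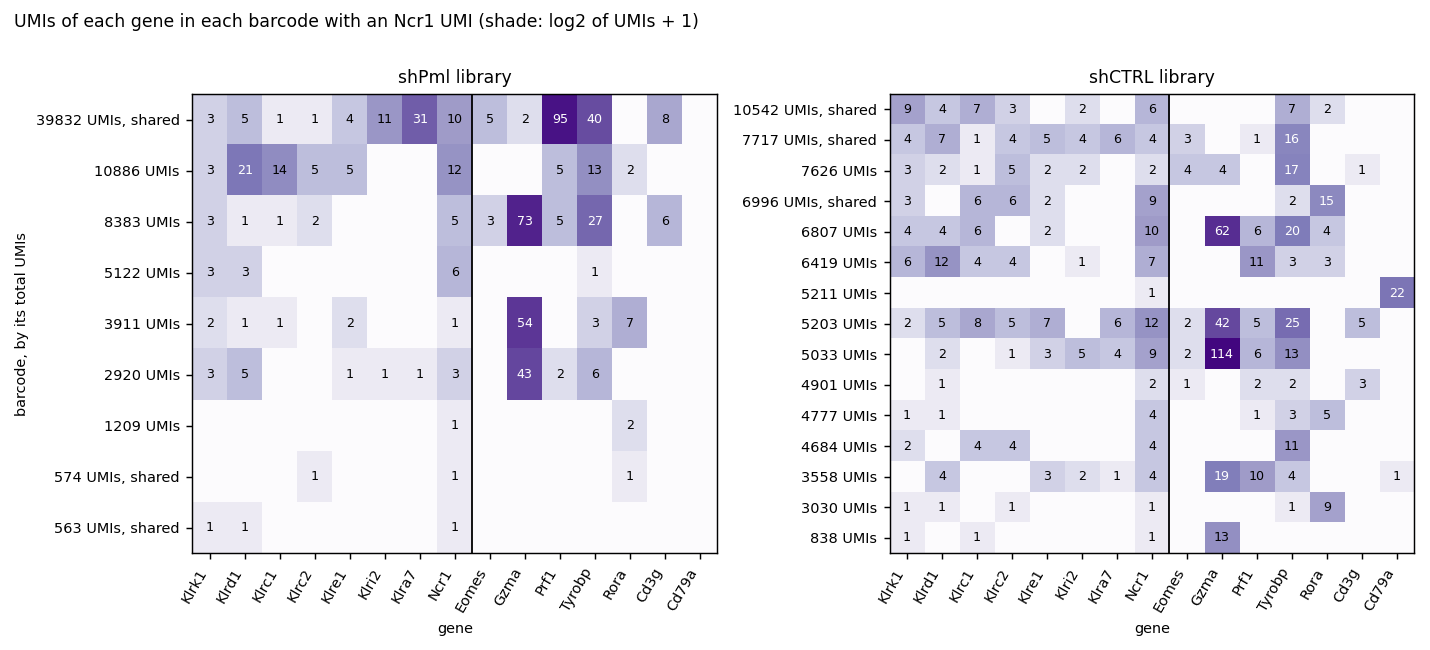
UMIs of the 8 genes (left of the line) and of 7 marker genes (right) in each barcode with an Ncr1 UMI, 1 row per barcode labelled by its total UMIs, with shared barcodes marked; shade is log2 of UMIs + 1 and empty squares are 0. Klra7 and Klri2 UMIs of the shPml library sit almost all in the top row, and the shCTRL row of 5211 UMIs holds Cd79a but no receptor gene other than Ncr1.

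Over all barcodes, the order of the groups was alike for most genes. Klrk1 ran from 432 CPM in shCTRL barcodes with an Ncr1 UMI through 245 CPM in the shPml ones to 236 CPM in shPml CD8 T cells, and these neighbours did not differ beyond their intervals. It then stepped down to shCTRL CD8 T cells (49.5 CPM) and CD4 T cells (10.2 and 8.64 CPM), the last 2 not apart. Klrd1 stepped down from the barcodes with an Ncr1 UMI to shPml CD8 T cells, by 1.27 (0.73 to 1.77). For Klrc1 and Klrc2, shPml CD8 T cells did not differ beyond counting error from the shPml barcodes with an Ncr1 UMI, while the shCTRL barcodes stood above those by 0.98 (0.12 to 1.90) and 1.69 (0.60 to 2.94). Once the shared barcodes were left out, the step of Klrc1 between the libraries turned (493 and 413 CPM, with intervals that overlapped), and the shPml level was then above the 178 CPM (149 to 212) of shPml CD8 T cells. In the 6 shPml barcodes with an Ncr1 UMI that were not shared, Klrk1 was at 432 CPM (14 UMIs) and Klrc2 at 216 CPM (7 UMIs). Over all barcodes, shPml CD8 T cells held these 2 genes at 236 and 63.6 CPM. Klre1 stepped down by 1.69 (0.66 to 2.60) from the shPml barcodes with an Ncr1 UMI to shPml CD8 T cells, and Klri2 by 5.99 (4.10 to 8.45). Klra7 was highest in the shPml barcodes with an Ncr1 UMI, which rested on the single barcode of 39832 UMIs.

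Few adaptor genes passed 2-fold, about the share over all genes. Of 20 adaptor and signalling genes, 15 could be counted in CD8 T cells and 2 were at least 2-fold higher in the shPml library, Sh2d2a (1.84; 1.65 to 2.04) and Sh2d1a (127 against 63.6 CPM), against 11.9% of all genes, with a median of 0.19. Hcst, the adaptor of NKG2D, was at 329 CPM (383 UMIs) in the shPml and at 407 CPM (403 UMIs) in the shCTRL library (-0.31; -0.51 to -0.10). Tyrobp, the adaptor DAP12 used by NKG2C and activating Ly49 receptors, had 12 and 7 UMIs in CD8 T cells, 10.3 and 7.07 CPM. In barcodes with an Ncr1 UMI it was at 1226 and 1488 CPM. The partner adaptor of NKG2C was thus near absent from the CD8 T cells in which Klrc2 was counted.

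Of 11 ligand genes in the files, 5 could be counted in CD8 T cells, and 3 were at least 2-fold lower in the shPml library, against 10.1% of all genes. H2-T23, which encodes the Qa-1 ligand of CD94 with NKG2A, was at 138 against 359 CPM (-1.39; -1.66 to -1.11). H2-D1, a classical class I gene, was at 2089 against 4453 CPM (-1.09; -1.16 to -1.02), and Clec2d, a lectin-like ligand of another NK receptor, at 48.1 against 117 CPM (-1.28; -1.77 to -0.81). H2-K1, the other classical gene, differed by 0.03 (-0.05 to 0.10). H60b, a ligand gene of NKG2D, had 0 UMIs against 17. The 3 lower genes were also lower without the shared barcodes.

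Of 24 genes of the NK and effector programme, 17 could be counted, 13 of them at least 2-fold higher in shPml CD8 T cells and 1 lower, against 11.9% and 10.1% of all genes, with a median of 1.84. Ccl5, a chemokine gene, was at 5294 against 904 CPM (2.55; 2.45 to 2.65). Gzmb was at 902 against 161 CPM (2.49; 2.25 to 2.74) and Gzma at 373 against 60.6 CPM (2.62; 2.23 to 3.04). Cx3cr1, a chemokine receptor gene of effector cells, had 26 UMIs against 0. Eomes was lower (-1.06; -1.74 to -0.40), but not beyond counting error without the shared barcodes (-0.70; -1.51 to 0.09). Without those barcodes 14 genes were 2-fold higher and 0 lower, against 17.5% and 11% of all genes, and Gzmb stood at 427 UMIs against 2. Of 19 other genes whose symbols start with Klr, 0 reached 20 UMIs in CD8 T cells. Klra3, with 11 and 4 UMIs, had the most.

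Over the 8 combinations of group and library, the genes whose log2(CPM + 10) went most closely with the summed receptor genes were Serpinb9 (Pearson r = 0.993), Serpinb6b (0.993), Sept11 (0.988), Cd160 (0.979), Arl4d (0.977) and Supv3l1 (0.977), out of 8623 genes with at least 50 UMIs. Serpinb9 encodes an inhibitor of granzyme B. By gene, Cd160 (0.996) and Serpinb9 (0.995) were closest to Klrk1, Serpinb9 (0.998) and Serpinb6b (0.993) to Klrc1, Nedd4 (0.992) and Xcl1 (0.991) to Klrd1, and Fasl (0.981) and Slamf7 (0.980) to Klrc2. Gzma (0.991) and Dapk2 (0.985) were closest to Klre1, Tmem39a (0.987) and Arsb (0.980) to Klra7, and Car2 (0.966) and Coq10a (0.961) to Ncr1. The 8 points share 2 libraries, and some share barcodes. In 2 of the points an Ncr1 UMI defined the group. The likeness to Ncr1 was thus largely set by the grouping, and likeness to the sum, which holds Ncr1, in part. These values only describe likeness.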

How the data were processed

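The authors deposited 1 matrix of UMI counts per library, with whole-number counts per gene and barcode and no normalization. The file headers name Cell Ranger 4.0.0 as the counting software. The mm10 build, R 4.3.3 and Seurat 4.4.0 are listed in the submitters' processing notes, with no role. The smallest deposited barcode total was 500 UMIs in both libraries. The annotation release, the kit end and the handling of reads that fit several genes are not given in the sources used here. Barcodes with at most 10% mitochondrial UMIs were kept, which left out 22.7% of shPml and 61.9% of shCTRL barcodes. A UMI of Ptprc, the gene for CD45, was found in 57.6% and 80.0% of those kept.

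UMIs were summed per group and library and divided by all UMIs of the group (1163042 and 990290 in CD8 T cells). Levels have exact Poisson, shares exact (Clopper-Pearson) binomial and ratios exact conditional Poisson intervals (95%), which cover counting error only. Where one side had 0 UMIs, the ratio was taken to 3 UMIs over the group as the floor. Genes with at least 20 UMIs over both sides were counted as 2-fold or not. No p-values were computed, because each group had 1 library. Cells were thinned to 500 UMIs with a fixed seed. Doublets were kept; Scrublet (scanpy 1.11.5) marked 5 of 1754 and 6 of 856 barcodes, 1 CD8 T cell in each library, and leaving these out was an alternative. Few barcodes were marked, so doublets may remain.

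The members and the lists were chosen with earlier results of these data known. All 8 genes are named, and of each list the genes whose interval bound lay farthest from 0; adaptors, partner ligands and near-absent genes beyond that rule (Hcst, Tyrobp, H2-K1, H60b, Eomes, Klra3) were chosen after their values were seen. The rule for likeness took the 6 genes with the highest r to the sum and 2 per member. Of the alternatives, 14 were planned and 3 were added after seeing the data. A marker gene and the values that rest on it are not reported here. Scripts ran on Python 3.11.15 with numpy 2.4.6, pandas 2.3.3, scipy 1.17.1, Biopython 1.88 and matplotlib 3.10.9, and interval coverage was tested on simulated data.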

Additional observations from a re-analysis of the deposited data

Results flagged for a closer look

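Receptor transcripts were also found outside the 4 groups of barcodes. Among barcodes over the mitochondrial limit, 514 in the shPml and 1388 in the shCTRL library, Klrk1 was at 104 CPM against 16.1 CPM, a log2 ratio of 2.69 (1.95 to 3.48). Klrc1 was at 49.2 against 8.06 CPM (2.61; 1.53 to 3.78), Klrc2 at 33.4 against 7.33 CPM (2.19; 0.98 to 3.48) and Klrd1 at 72.8 against 35.2 CPM (1.05; 0.39 to 1.70). These barcodes entered no main comparison, only the alternatives with a higher mitochondrial limit or none. Klrd1 had the lowest of the 4 ratios, as in CD8 T cells.

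Among kept barcodes in none of the groups, 805 and 338, Klrk1 was at 86.7 against 23.3 CPM (1.89; 1.31 to 2.52). Klrc1 was at 55.9 against 11.3 CPM (2.31; 1.49 to 3.24), Klrc2 at 28.3 against 4.83 CPM (2.55; 1.31 to 4.07) and Klrd1 at 59.1 against 30.6 CPM (0.95; 0.39 to 1.53). The median depth of these barcodes was 909 UMIs in the shPml and 3105 in the shCTRL library. Which cells they come from was not tested.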

How the results depend on the processing

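No paired analysis was possible because 1 library stands for each condition. No ratio of the summed genes reversed where its interval lay on 1 side of 0. The summed CD8 ratio between libraries (1.4) ran from 0.80 to 2.12 over 17 alternatives: 1.73 with at least 2 Cd8a or Cd8b1 UMIs, 2.12 without shared barcodes, 2.09 when these cells also needed 1000 UMIs, 0.89 after thinning, 0.80 as a mean over cells, and 1.72 among cells with Xist and no Y-linked UMI once shared barcodes were left out. The CD4 ratio (-0.58), whose interval held 0, was 2.92 after thinning, on 3 and 2 UMIs, and 1.5 as a mean over cells. The CD8 over CD4 ratio of the shPml library (4.66) was 2.69 after thinning and 3.04 as a mean over cells. That of the shCTRL library (2.68) was 2.21 with a mitochondrial limit of 5%, 4.72 after thinning, 3.75 as a mean over cells, 3.84 without the barcode richest in these genes, and 2.16 among cells with Xist. The CD8 over neutrophil ratio of the shPml library (8.05) was 4.61 after thinning, against the floor. That of the shCTRL library (3.30, against the floor) was 2.87 with neutrophils at 5% of UMIs, 1.90 without shared barcodes, 1.85 when these also needed 1000 UMIs, 0.80 after thinning, 1.80 among cells with Xist, and 0.84 among cells with Xist that were not shared. As a mean over cells it gave no value. Of these results, 79 other values moved by less than their counting interval. The causes were not tested, except that thinning and leaving out barcodes lower the counts behind a ratio against the floor. Thinned CD8 ratios of Klrd1 (0.06), Klrc2 (0.54) and Klre1 (0.75) had intervals that held 0. Few cells, 24 shCTRL neutrophils and 48 shPml CD4 T cells, limit the ratios that rest on them.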

Other observations

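The 91 barcodes found among CD8 T cells of both libraries allow the same barcode to be read in each. Klre1 was in 8 of their shCTRL versions, and 7 of those 8 shPml versions held it too (87.5%), against 5 of the other 83 (6.02%). For Klrk1 the shares were 10 of 18 (55.6%) and 24 of 73 (32.9%), for Klrc1 9 of 20 (45%) and 26 of 71 (36.6%), and for Klrd1 9 of 20 (45%) and 27 of 71 (38.0%). The shPml versions were deeper, with a median of 2522 UMIs against 1003. Over all 266 shared barcodes, 104 held at least 1 of the 8 genes in the shCTRL library, and 77 of these (74.0%) did so in the shPml library as well.

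Ncr1 was also found beyond the mitochondrial limit, with 10 UMIs in the shPml and 22 in the shCTRL library. Klrc3, the near copy of Klrc2, had 0 UMIs in CD8 T cells of both libraries, and 1 and 2 UMIs among barcodes with an Ncr1 UMI.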
